A study of Mus musculus with 12 samples.

Results

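The 10 genes described here act in blood vessels and in their growth: Vegfa, Kdr, Flt1, Apln, Pecam1, Cdh5, Tek, Tie1, Angpt1 and Angpt2. They were listed by name, with no measured value in the rule but with earlier results of these data known, and were read by symbol from the expression files, which list 22923 distinct symbols. All 10 were found on a single row each, and all 10 passed the filter on low values that 11945 genes passed. The RNA came from proximal hind leg muscle of male mice labelled FVB (FVB/N in the study's methods) at 22 weeks of age, with 3 mice in each of 4 groups. The study asked whether loss of αB-crystallin/HspB2 alters the response to a diet that impairs glucose tolerance. Each genotype, WT and KO, was kept on normal chow or moved to high fat diet, and the mice are called chow-fed and fat-fed below. The KO mice lacked both Cryab, which encodes αB-crystallin, and its neighbour Hspb2 in every tissue, so an effect in muscle and an effect that reaches muscle from elsewhere cannot be told apart. The WT mice are littermates whose titles call them Flox, and the high fat diet, in which fat gave 60% of calories, began at 6 weeks of age.

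Blood vessels are lined by endothelial cells. Vascular endothelial growth factor A, made in muscle largely by the fibers, acts on these cells through the receptor Kdr, which drives vessel growth, and through Flt1, which binds the same ligand tightly and limits how much of it reaches Kdr. Angpt1, made by cells around the vessel, activates the receptor Tek and steadies the vessel wall, while Angpt2, made by endothelial cells, opposes it in many settings, and Tie1 is an orphan receptor that works beside Tek. Pecam1 and Cdh5 hold endothelial cells to one another at their junctions, and Apln encodes apelin, a peptide released by sprouting endothelium. In bulk muscle RNA, fewer endothelial cells and less RNA per endothelial cell cannot be told apart.

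The stretches before the start of the ligand Vegfa, of its receptors Kdr and Flt1 and of Tek are shown because these 4 genes tracked one another over the libraries (Pearson's r of 0.61 to 0.81 over their pairs) and because Vegfa and Flt1 had the largest average genotype differences of the 10. Other pairs of the 10 were as close, such as Cdh5 and Pecam1 at 0.83, so the 4 are not a set apart. Cdh5 and Pecam1 had no promoter entry. The stretches are RefSeq sequences on GRCm38.p6, written on the strand of the gene, and end at the base before the gene's annotated span or start. The capitals mark GGAA or its complement TTCC, the core of the sites that ETS factors bind, a family active in endothelial cells. The Vegfa stretch is chr17:46032378-46032627 on the minus strand, the Kdr stretch is chr5:75978459-75978705 on the minus strand, the Flt1 stretch is chr5:147726012-147726261 on the minus strand and the Tek stretch is chr4:94739039-94739288 on the plus strand.
Vegfa: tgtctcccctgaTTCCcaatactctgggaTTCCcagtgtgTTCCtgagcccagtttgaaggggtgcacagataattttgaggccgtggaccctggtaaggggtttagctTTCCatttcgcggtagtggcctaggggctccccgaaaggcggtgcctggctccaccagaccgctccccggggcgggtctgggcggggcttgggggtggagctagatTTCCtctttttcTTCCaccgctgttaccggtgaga
Kdr: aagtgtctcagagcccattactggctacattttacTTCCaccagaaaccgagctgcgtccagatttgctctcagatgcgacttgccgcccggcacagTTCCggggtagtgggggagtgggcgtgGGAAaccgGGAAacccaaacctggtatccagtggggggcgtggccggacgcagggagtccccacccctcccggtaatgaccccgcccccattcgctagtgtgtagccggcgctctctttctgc
Flt1: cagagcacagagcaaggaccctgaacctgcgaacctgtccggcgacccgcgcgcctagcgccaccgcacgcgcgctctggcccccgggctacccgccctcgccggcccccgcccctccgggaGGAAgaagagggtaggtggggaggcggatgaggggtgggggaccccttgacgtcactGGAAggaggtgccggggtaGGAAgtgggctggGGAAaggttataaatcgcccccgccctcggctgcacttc
Tek: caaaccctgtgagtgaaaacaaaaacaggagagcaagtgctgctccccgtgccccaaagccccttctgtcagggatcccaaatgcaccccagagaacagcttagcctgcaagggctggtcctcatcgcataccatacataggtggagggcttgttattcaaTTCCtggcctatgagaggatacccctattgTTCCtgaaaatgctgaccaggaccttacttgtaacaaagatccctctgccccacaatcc

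The core occurred 6 times before Vegfa, 4 times before Kdr, 4 times before Flt1 and 2 times before Tek. Of 32851 RefSeq stretches of 250 bases before a start, 93.45% held it, with a median of 3, so its presence is common to most genes. The longer form AGGAAG, which contains the core, occurred 2 times before Flt1 and in none of the other 3 stretches, against 29.48% of all stretches. ACGTG is a form of the core to which hypoxia-inducible factors bind. These letters occurred on neither strand of the 4 stretches and in 16.57% of all stretches. This says only that they are not in this window. The other form of the core, GCGTG, was not counted, and it or its complement can be read in the Kdr and Flt1 stretches. RefSeq promoter entries matched 6 of the 10 genes, and a match is a description of letters, not of binding.

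In the GENCODE M21 annotation of GRCm38, Vegfa lies on chromosome 17 from 46016993 to 46032369, Kdr on chromosome 5 from 75932827 to 75978458 and Flt1 on chromosome 5 from 147561604 to 147726011. Tek, from 94739289 to 94874976, and Tie1, from 118471191 to 118490061, both lie on chromosome 4. Cdh5, from 104101625 to 104144511, and Angpt2, from 18690263 to 18741562, lie on chromosome 8. Pecam1 lies on chromosome 11 from 106654217 to 106750628, Angpt1 on chromosome 15 from 42424723 to 42676977 and Apln on chromosome X from 48025146 to 48034853. The expression values count whole genes, not single exons or transcripts.

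The genotype label of 6 libraries goes against their title, and the groups used here follow the titles. Cryab was 412 to 837 FPKM in the 6 libraries titled WT and 0.845 to 1.75 FPKM in the 6 titled KO, and Hspb2 was 81.5 to 103.1 and 0.353 to 1.92 FPKM, so each library stood with the genotype in its title. FPKM is a level scaled to transcript length and library size, and totals of these values, 484182 to 691621 per library without the microRNA gene Mir324, are not depths, so the depth in reads is unknown. Spearman's rho between any 2 libraries was 0.963 to 0.984. Of 6 skeletal muscle markers, Myh4 was listed at 0 in all 12 libraries and Acta1, a main muscle actin, in 2, so a listed 0 need not mean no RNA, whereas Ckm, muscle creatine kinase, was 13276 to 25896 FPKM. The sum of 8 lymphoid markers set 3 libraries apart. It came to 78.4 FPKM in replicate 2 of the chow-fed WT mice and 90.6 and 87.0 FPKM in replicates 1 and 3 of the chow-fed KO mice, against 0.606 to 7.17 FPKM in the other 9. Replicate 2 of the fat-fed KO mice had lower values for long transcripts: the median deviation of the longest 20% of genes minus that of the shortest 20% was -0.256 on the log2 scale, beside -0.220 in replicate 1 of the fat-fed WT mice and -0.0884 to 0.153 in the other 10.

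Vegfa was the most abundant of the 10 genes on the FPKM scale, with a mean of 66.4 ± 15.8 FPKM (SD, n = 12), above the mean of 91.2% of the tested genes. The junction genes followed, Pecam1 at 34.5 ± 3.33 FPKM (SD, n = 12) and Cdh5 at 33.8 ± 4.28 FPKM (SD, n = 12), and this pair did not differ beyond their spread. Tie1 came next at 14.2 ± 1.82 FPKM (SD, n = 12), above Kdr in 12 of 12 libraries. Kdr at 9.91, Angpt1 at 8.58, Flt1 at 8.26 and Tek at 7.25 FPKM formed a group in which no neighbour differed from the next by more than the larger SD. Angpt2 at 1.57 ± 0.278 FPKM (SD, n = 12) and Apln at 1.52 ± 0.543 FPKM (SD, n = 12) were the lowest and did not differ from each other beyond their spread. Tek varied least, with an SD of 0.09 on the log2(FPKM + 1) scale over the 12 libraries, and 6.57% of tested genes had a smaller one. On that scale Vegfa varied most, with an SD of 0.35, larger than that of 86.4% of tested genes, and the median SD of the 10 genes was 0.19 against 0.17 for all tested genes. On the FPKM scale itself Apln varied more, with a coefficient of variation of 35.8% against 23.8% for Vegfa.

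**Figure D1:**
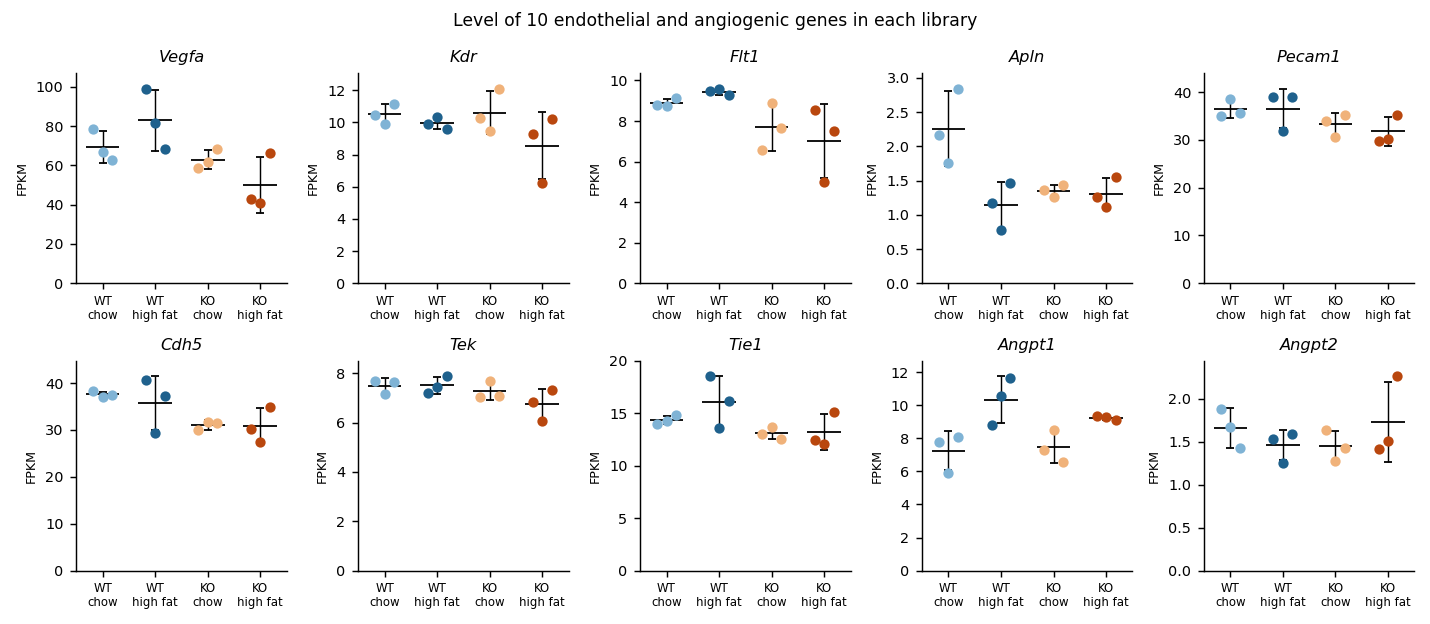
FPKM (vertical axes, from 0) of each gene in the 12 libraries, by group (horizontal axes). Points are libraries, black lines are group means and bars are SD with n = 3, and the fat-fed KO mice hold the lowest Vegfa values, 40.8 and 43.0 FPKM.

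Differences were fitted with limma on log2(FPKM + 1) across the 11945 tested genes, and a gene was called where the Benjamini-Hochberg adjusted p was under 0.05. None of the 10 genes was called in any of the 7 comparisons. What follows gives their values, with unadjusted p-values named as such. The share of all tested genes that met the same criterion is given with the counts over the 10 genes further below.

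For Vegfa the genotypes stood apart with fat feeding. On that diet it was 99.1, 81.8 and 68.3 FPKM in the WT mice and 43.0, 40.8 and 66.5 FPKM in the KO mice, and the groups did not overlap, though the lowest WT and the highest KO library were close. In chow-fed mice it was 78.6, 67.0 and 62.5 FPKM in the WT mice and 58.7, 62.0 and 68.2 FPKM in the KO mice, which overlap. The genotype difference with fat feeding was -0.74 (log2 scale, standard error 0.19, unadjusted p = 0.0023, adjusted p = 0.10), and that with chow feeding was -0.13 with a standard error of 0.19 (adjusted p = 0.69). The test of the diet by genotype interaction gave -0.60 with a standard error of 0.26 (unadjusted p = 0.043, adjusted p = 0.79), so the 2 diets were not shown to differ. Averaged over diets the difference was -0.43, with a 95% confidence interval of -0.72 to -0.14 (adjusted p = 0.086). With each library left out in turn it lay between -0.54 and -0.37, with an adjusted p no lower than 0.051.

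Flt1 lay within narrow limits in the WT mice and spread downward in the KO mice. It was 8.78, 8.75 and 9.11 FPKM in chow-fed WT mice and 9.47, 9.57 and 9.27 FPKM in fat-fed WT mice, which do not overlap. In the KO mice it was 6.55, 8.89 and 7.65 FPKM with chow feeding and 8.55, 5.01 and 7.51 FPKM with fat feeding. The genotype difference was -0.41 with fat feeding (unadjusted p = 0.020, adjusted p = 0.21) and -0.21 there without replicate 2 of the fat-fed KO mice (adjusted p = 0.48). Averaged over diets it was -0.30 (unadjusted p = 0.017, adjusted p = 0.12). With chow feeding it was -0.19 (adjusted p = 0.47), and -0.01 without the 3 libraries rich in lymphoid markers. Only replicate 2 of the chow-fed KO mice, at 8.89 FPKM, is then left in its group. Kdr, the other receptor, was 9.61 to 11.1 FPKM in the WT mice and 9.25 to 12.1 FPKM in 5 of the 6 KO libraries. The sixth, again replicate 2 of the fat-fed KO mice, held 6.21 FPKM, and the genotype difference of Kdr on that diet was -0.22 with it and -0.03 without it. This is also the library with the lowest Flt1, Cdh5, Tek and Tie1, and its lower values for long transcripts are given above. Kdr and Flt1 have long transcripts, of 5924 and 6895 bases, longer than those of 86.0% and 91.3% of the tested genes with a known length. In that library they deviated by -0.58 and -0.61 (log2 scale) from their means over all libraries. Vegfa, longer than 52.3% of these genes, deviated by -0.65, and Angpt1, longer than 67.5%, by 0.12. The part of length in these values was not tested.

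The ratio of Flt1 to Kdr sets the receptor that withholds the ligand against the one that signals. It was 0.820 to 0.882 in chow-fed and 0.929 to 0.965 in fat-fed WT mice, where the diets did not overlap. In the KO mice it was 0.636 to 0.937 with chow feeding and 0.739 to 0.924 with fat feeding. Among chow-fed KO mice, replicates 1 and 3, rich in lymphoid markers, were at 0.642 and 0.636, and replicate 2 was at 0.937. The chow-fed WT library rich in these markers was at 0.882. The part of lymphoid cells in the ratio was not tested. The mean of the KO mice differed from that of the WT mice by -0.22 on the log2 scale over both diets (exact permutation test within diets, two-sided, p = 0.065, adjusted p = 0.17 over 4 ratio tests). The diet difference over both genotypes was 0.17 (exact permutation p = 0.13, adjusted p = 0.17), and the smallest p that the 400 permutations allow is 0.005.

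Apln, encoding apelin, was highest in the chow-fed WT mice. It was 2.17, 1.76 and 2.84 FPKM there, against 1.18, 0.771 and 1.46 FPKM in fat-fed WT mice. In KO mice it was 1.36, 1.26 and 1.43 FPKM with chow feeding and 1.26, 1.11 and 1.56 FPKM with fat feeding, overlapping ranges. The diet difference in WT mice was -0.61 with a standard error of 0.15 (unadjusted p = 0.0018, adjusted p = 0.16), and the genotype difference with chow feeding was -0.46 with a standard error of 0.15 (unadjusted p = 0.011, adjusted p = 0.28). Both comparisons rest on the same 3 chow-fed WT libraries. In KO mice the diet difference was -0.03, and the interaction was 0.58 (unadjusted p = 0.019, adjusted p = 0.69). At these low levels the added 1 FPKM understates the fold change.

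Angpt1, the ligand that activates Tek, was higher with fat feeding in both genotypes. It was 7.76, 5.90 and 8.10 FPKM in chow-fed WT mice and 8.82, 10.5 and 11.7 FPKM in fat-fed WT mice. In the KO mice it was 7.29, 8.53 and 6.59 FPKM with chow feeding and 9.35, 9.29 and 9.09 FPKM with fat feeding. The diets did not overlap in either genotype, which held upward for 0.954% of all tested genes. Averaged over genotypes the diet difference was 0.37, with a 95% confidence interval of 0.17 to 0.57 (unadjusted p = 0.0017, adjusted p = 0.18). It was 0.46 in WT mice (adjusted p = 0.24) and 0.28 in KO mice (adjusted p = 0.44), and the interaction was -0.18 (adjusted p = 0.91). Without the 3 libraries rich in lymphoid markers, all of them from chow-fed mice, only replicate 2 of the chow-fed KO mice was left in its group. The diet difference was then 0.34 in WT mice, 0.10 in KO mice and 0.22 on average.

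Angpt2, the ligand that opposes Angpt1, was 1.26 to 1.88 FPKM in 11 libraries and 2.26 FPKM in replicate 3 of the fat-fed KO mice. Its difference was 0.02 for diet and 0.01 for genotype on average, with intervals of -0.19 to 0.22 and -0.19 to 0.21. The ratio of Angpt2 to Angpt1 was 0.252, 0.295 and 0.186 in chow-fed WT mice and 0.183, 0.127 and 0.143 in fat-fed WT mice. The diets did not overlap in WT mice, though 0.186 and 0.183 were close. How often ratios of other genes stand apart in this way was not counted. In KO mice it was 0.159 to 0.235 with chow feeding and 0.159 to 0.257 with fat feeding, which overlap. Over both genotypes the ratio differed by -0.39 on the log2 scale between diets (exact permutation p = 0.11, adjusted p = 0.17) and by 0.06 between genotypes (exact permutation p = 0.77).

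**Figure D2:**
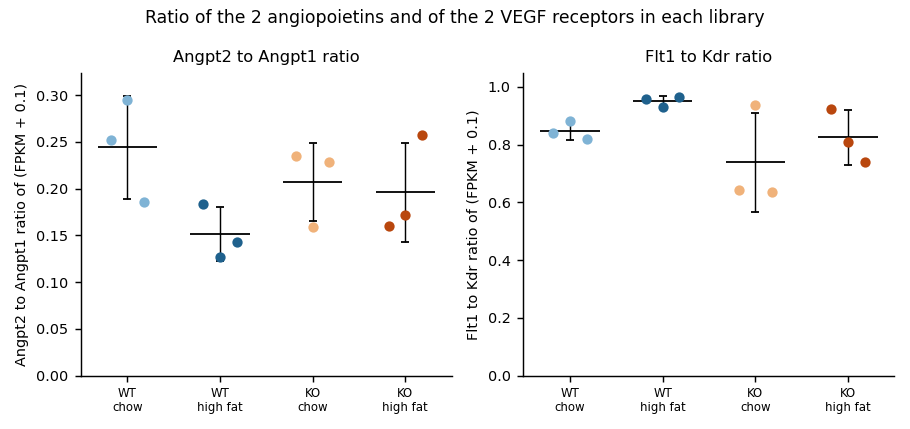
Ratio of Angpt2 to Angpt1 and of Flt1 to Kdr (vertical axes, from 0, on FPKM with 0.1 added) in the 12 libraries by group. Points are libraries, lines are means and bars are SD with n = 3, and the Angpt2 to Angpt1 ratio of fat-fed WT mice, 0.127 to 0.183, lies below that of chow-fed WT mice, 0.186 to 0.295.

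Of the TIE receptors, Tek varied little. It was 7.15 to 7.89 FPKM in the WT mice and 6.07 to 7.68 FPKM in the KO mice, and its genotype difference was -0.09 on average, with an interval of -0.21 to 0.03. Tie1 was 13.96, 14.3 and 14.8 FPKM in chow-fed WT mice and 13.0, 13.7 and 12.5 FPKM in chow-fed KO mice, which do not overlap. In fat-fed mice it was 18.5, 13.6 and 16.1 FPKM in WT mice and 12.4, 12.04 and 15.2 FPKM in KO mice, which overlap. The average genotype difference of Tie1 was -0.19 (unadjusted p = 0.032, adjusted p = 0.15).

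The junction genes were likewise lower in the KO mice by amounts that did not pass the test. Cdh5, the cadherin of endothelial junctions, was 38.3, 37.1 and 37.4 FPKM in chow-fed WT mice and 29.9, 31.8 and 31.6 FPKM in chow-fed KO mice. These groups did not overlap, with a difference of -0.27 (unadjusted p = 0.046, adjusted p = 0.30). In fat-fed mice it was 40.6, 29.3 and 37.3 FPKM in WT mice and 30.3, 27.3 and 34.8 FPKM in KO mice, which overlap. Pecam1 was 31.8 to 39.0 FPKM in WT mice and 29.8 to 35.3 FPKM in KO mice, with an average genotype difference of -0.16 (unadjusted p = 0.051, adjusted p = 0.19).

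**Figure D3:**
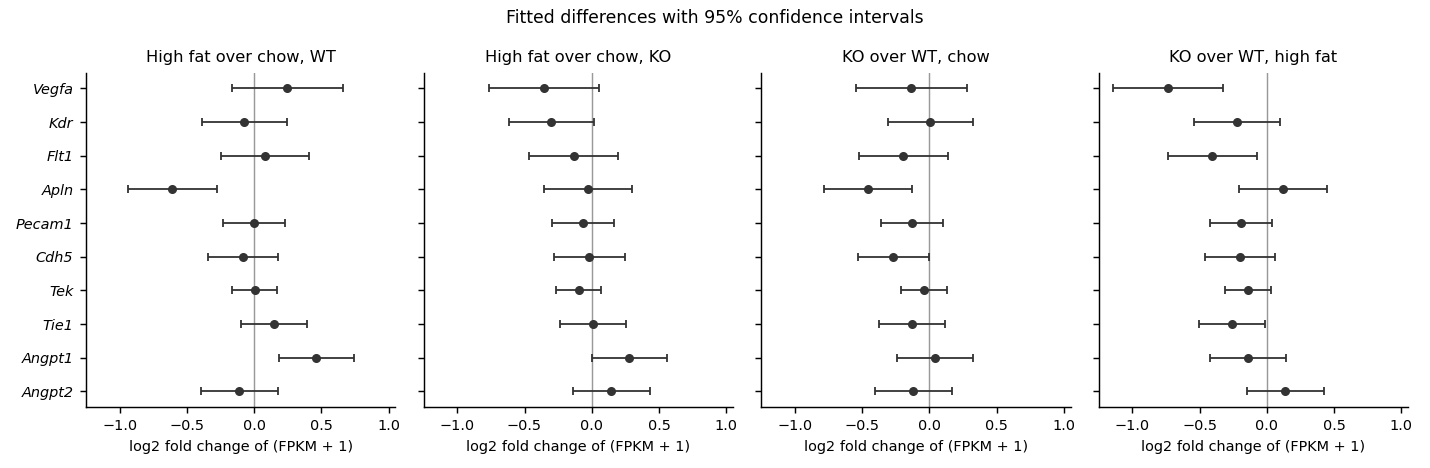
Fitted log2 fold change of FPKM + 1 (horizontal axes) of the 10 genes in 4 comparisons, with 95% confidence intervals as bars. The intervals exclude 0 for Angpt1 and Apln in the diet comparison in WT mice, for Cdh5 and Apln between genotypes with chow feeding, and for Vegfa, Flt1 and Tie1 between genotypes with fat feeding, none of which passed the adjusted threshold.

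Counted over the 10 genes, the genotype comparisons leaned downward. Most of these genes rose and fell together over the libraries, and replicate 2 of the fat-fed KO mice held the lowest value of several. The counts are therefore descriptions and not separate pieces of evidence. For 0 of the 10 did the genotypes stand apart on both diets, which held downward for 2.34% of all tested genes. Averaged over diets, 9 of the 10 had a fitted value below 0, against 6646 of all 11945 tested genes, and their median was -0.16 against -0.02. At an unadjusted p under 0.05, 4 of the 10 were lower in KO mice (Vegfa, Flt1, Cdh5 and Tie1), where 13.4% of all tested genes were, and 0.862% of all genes were called after adjustment. In fat-fed mice the median was -0.20 against -0.01, 3 of the 10 were lower at an unadjusted p under 0.05 against 6.45%, and the groups did not overlap for Vegfa and Flt1, 2 of the 10, against 10.7% of all genes in that direction. The adjusted calls there came to 0.109%. In chow-fed mice the median was -0.13 against -0.03, Cdh5 and Apln were lower at an unadjusted p under 0.05 against 9.93%, and the groups did not overlap for Cdh5, Tie1 and Apln, 3 of the 10, against 10.2%. The adjusted calls there came to 0.0586%.

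The diet comparisons had medians nearer to 0. Fitted values were below 0 for 4 of the 10 genes in WT mice, 7 in KO mice and 7 averaged over genotypes, against 6399, 5256 and 5659 of all tested genes. In WT mice the median of the 10 was 0.00 against -0.01 for all genes, Angpt1 was higher at an unadjusted p under 0.05 against 4.42%, and Apln was lower against 3.7%. The diets did not overlap upward for Flt1 and Angpt1, 2 of the 10, against 6.2%, and downward for Apln against 6.88%, while 0.1% of all genes were called. In KO mice the median was -0.05 against 0.03, the diets did not overlap upward for Angpt1 alone against 10.7%, and 0% of all genes were called, with 1349 genes at an unadjusted p under 0.05 in limma. Averaged over genotypes, Angpt1 was higher at an unadjusted p under 0.05 against 7.96% and Apln lower against 5.94%, and 0.0586% of genes were called. In the interaction 7 of the 10 were below 0 against 5324 of all tested genes, with a median of -0.12 against 0.03. There 0% were called, and at an unadjusted p under 0.05 Apln was positive against 3.55% and Vegfa negative against 2.7%, with 746 genes in all in limma.

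The genotype differences were also fitted with another grouping and without a few libraries. The genotype label nearly exchanges the groups with fat feeding and goes against Cryab and Hspb2. A fit with it is therefore no test of these differences. With the label in place of the title, the average genotype difference was 0.35 for Vegfa (0.88 with fat feeding), 0.12 for Flt1, 0.14 for Tie1 and 0.03 for Cdh5. Without the 3 libraries rich in lymphoid markers, only replicate 2 of the chow-fed KO mice is left in its group, so effect sizes alone are given. The average genotype difference was then -0.46 for Vegfa, -0.21 for Flt1, -0.22 for Cdh5 and -0.17 for Tie1. With all libraries it was -0.43, -0.30, -0.23 and -0.19.

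Over the 12 libraries the 6 endothelial genes Pecam1, Cdh5, Tie1, Tek, Kdr and Flt1 were positively related in every pair, to unequal degrees. As a description, Pearson's r on log2(FPKM + 1) ran from 0.27 for Tie1 and Kdr and 0.39 for Pecam1 and Flt1 up to 0.83 for Cdh5 and Pecam1, 0.83 for Tie1 and Cdh5 and 0.81 for Tek and Flt1, and that of Vegfa with the 6 was 0.61 to 0.73. For Angpt1 it was -0.35 with Kdr to 0.23 with Tie1 among the 6, and -0.41 with Apln. The mean of the standardized values of the 6 genes ran from -2.01 in replicate 2 of the fat-fed KO mice to 0.98 in replicate 1 of the fat-fed WT mice, the 2 libraries with the lowest values for long transcripts. It was above 0 in 5 of 6 WT libraries and below 0 in 5 of 6 KO libraries. The genes most like this mean were Iqsec1 at 0.93, Btbd3 at 0.92, Qrich1 at 0.91, Arap3 at 0.91 and Podxl at 0.91, where 95% of tested genes lay under 0.63. The genes most like Vegfa were Josd1 at 0.92, Ybx2 at 0.91, Dhrs11 at 0.90, Epas1 at 0.90 and Slc16a1 at 0.90, where 95% lay under 0.65. The points share libraries and their scaling, so these values are descriptions over 12 libraries.

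Other genes of these pathways were read from fixed lists. Of 9 tested partners of VEGF and apelin signaling out of 10, none was called for diet or genotype on average, with medians of -0.08 and -0.08. The lymphatic growth factor Vegfc had the smallest p for diet, with means of 1.70 and 2.41 FPKM in chow-fed and fat-fed WT mice and 1.35 and 2.58 FPKM in the KO mice, with a difference of 0.47 (adjusted p = 0.16). Figf, the files' name for Vegfd, had the smallest p for genotype, with means of 4.13 and 3.23 FPKM in chow-fed and fat-fed WT mice against 6.10 and 6.18 FPKM in the KO mice, with a difference of 0.62 (adjusted p = 0.059). Vegfb, a ligand of Flt1 but not of Kdr, was 115 to 183 FPKM in WT and 91.6 to 113 FPKM in KO mice, with a genotype difference of -0.39 (adjusted p = 0.083). Vegfb is named after its values were seen.

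Among 6 tested genes of 7 in a list of TIE partners and angiopoietin-like genes, 1 was called. Svep1, a matrix protein that binds the orphan receptor Tie1, rose in the KO mice by 0.61 with a standard error of 0.12 (adjusted p = 0.04985, just under the threshold). It was 2.32, 3.14 and 2.73 FPKM in chow-fed WT mice, 1.25, 2.74 and 2.58 FPKM in fat-fed WT mice, 4.93, 3.96 and 4.83 FPKM in chow-fed KO mice and 4.34, 3.69 and 3.63 FPKM in fat-fed KO mice. The genotypes did not overlap on either diet, which held upward for 3.14% of all tested genes, but the call was lost without 1 of 7 libraries, with an adjusted p of up to 0.13. These were replicates 1 and 3 of the chow-fed WT mice, replicates 1 and 3 of the chow-fed KO mice and each replicate of the fat-fed KO mice. It was also lost with a pseudocount of 0.1, without the filter, with the replicate block (adjusted p = 0.080) and with median-of-ratios size factors. Without the 3 libraries rich in lymphoid markers, which leaves only replicate 2 of the chow-fed KO mice, the difference was 0.57. The list's median genotype difference was 0.47 and its median diet difference was -0.03. The list includes the angiopoietin-like genes Angptl1, Angptl2 and Angptl4, so these medians are not those of TIE partners alone. Angptl2 had the smallest p for diet, at 0.32 (adjusted p = 0.35).

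In the Notch list, whose genes steer the choice between tip and stalk cells of a sprout, all 10 tested genes of 12 had a genotype difference below 0, with a median of -0.15, and 1 was called. Nrarp, a Notch target that dampens Notch signaling, fell by 0.73 in the KO mice (log2 scale, standard error 0.11, adjusted p = 0.019). It was 8.44, 5.21 and 6.88 FPKM in chow-fed WT mice and 3.47, 4.03 and 3.10 FPKM in chow-fed KO mice, and 7.83, 7.21 and 7.70 FPKM in WT against 3.71, 4.09 and 5.37 FPKM in fat-fed KO mice. The genotypes did not overlap on either diet, which held downward for 2.34% of all tested genes. The call was lost without replicate 1 of the chow-fed WT mice, replicate 3 of the chow-fed KO mice or replicate 1 or 2 of the fat-fed KO mice, 4 of the 12 libraries, with an adjusted p of up to 0.068. Without the 3 libraries rich in lymphoid markers, which leaves only replicate 2 of the chow-fed KO mice, the difference was -0.73. For diet the list's median was 0.00, and Notch4 had the smallest p, at -0.17 (adjusted p = 0.35).

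None of the 32 pan-endothelial genes was called. Of these, 28 had a genotype difference below 0, with a median of -0.15, and 12 were lower at an unadjusted p under 0.05 in limma, where 13.4% of all tested genes were. Aqp1, the water channel of capillaries, had the smallest p, with means of 238 and 267 FPKM in chow-fed and fat-fed WT mice and 171 and 186 FPKM in the KO mice, and a difference of -0.50 (adjusted p = 0.066). For diet the median was 0.03, and Ets1, an endothelial and lymphocyte transcription factor, had the smallest p, at -0.60 (adjusted p = 0.23). Ets1 was 15.8, 15.8 and 17.2 FPKM in the libraries rich in lymphoid markers. It was 8.07 to 9.37 FPKM in the other chow-fed libraries and 5.50 to 8.56 FPKM in the fat-fed ones. The sum of the 32 genes was 669 to 875 FPKM in the WT mice and 597 to 679 FPKM in the KO mice. Among 12 mural genes, of pericytes and smooth muscle, 10 were below 0 for genotype with a median of -0.19 and none was called, the smallest p being that of Acta2 at -0.39 (adjusted p = 0.083). For diet their median was 0.07, with Tagln at 0.22 (adjusted p = 0.33). The lymphatic and high endothelial list, with 4 of 8 genes tested, had a median of 0.38 for genotype and -0.36 for diet, with Lyve1 at 0.57 (adjusted p = 0.20) and -0.71 (adjusted p = 0.31). Its gene Glycam1 was 11.9, 19.5 and 34.3 FPKM in the libraries rich in lymphoid markers and at most 0.0895 FPKM in the others.

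Genes of hypoxia and Vegfa control, 17 of 18 tested, had medians of 0.02 for genotype and 0.00 for diet, with none called. Vash2, a vasohibin that promotes vessel growth, differed by 0.55 between genotypes (adjusted p = 0.071), and Ppargc1a, a coactivator that raises Vegfa in muscle, by -0.32 between diets (adjusted p = 0.36). Epas1, which encodes HIF-2α, was 43.3 to 60.8 FPKM in WT and 34.3 to 48.4 FPKM in KO mice, with a genotype difference of -0.22 (adjusted p = 0.14). The anti-angiogenic list, 7 of 9 tested, was above 0 for diet in 7 of 7, with a median of 0.43, and none was called. Thbs4, a thrombospondin, had means of 31.2 and 93.3 FPKM in chow-fed and fat-fed WT mice and 30.1 and 50.7 FPKM in KO mice. Its diet difference was 1.15 (adjusted p = 0.074), and whether Thbs4 limits vessel growth here was not tested. The tendon marker Tnmd, from another list, had means of 3.99 and 22.3 FPKM in these WT groups and 2.92 and 6.98 FPKM in KO mice. The genotype median of that list was 0.30, with Cd36, a fatty acid and thrombospondin receptor, at 0.40 (adjusted p = 0.076).

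**Figure D4:**
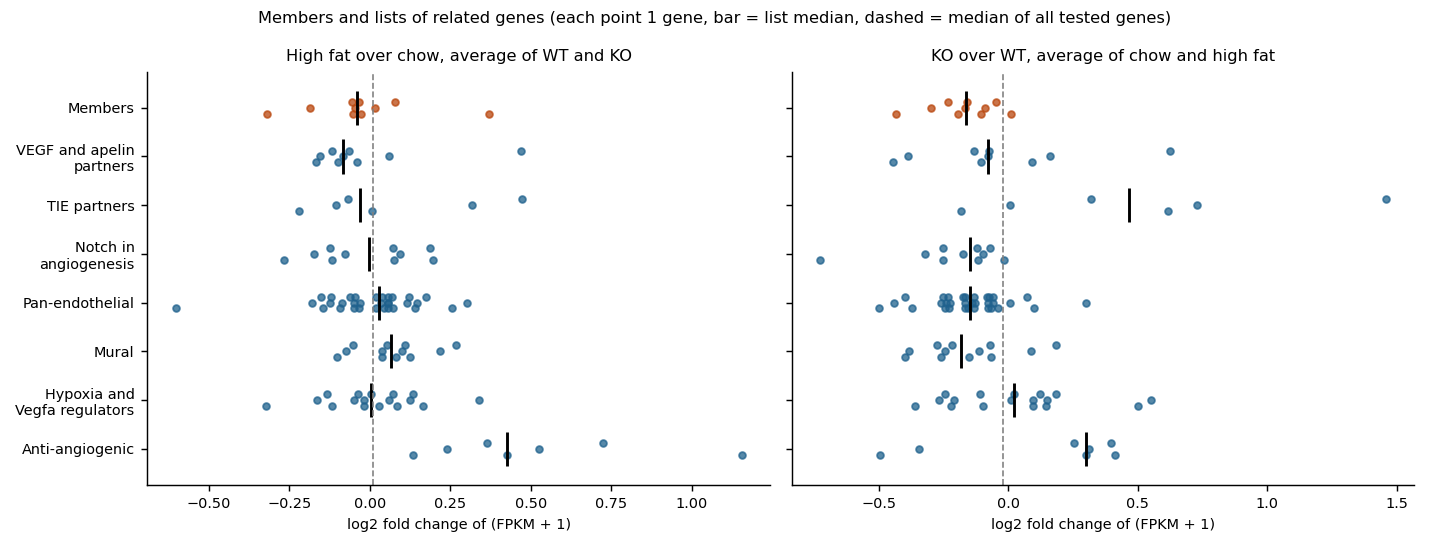
Log2 fold change of FPKM + 1 (horizontal axes) of the 10 genes and of 7 lists of related genes, for diet averaged over genotypes (left) and genotype averaged over diets (right). Each point is 1 gene, bars are list medians and the dashed line is the median of all tested genes; the median of the 10 genes is -0.04 for diet and -0.16 for genotype.

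Markers of other cell types moved with the groups. The 6 adipocyte markers summed to 120 to 778 FPKM in WT and 865 to 1864 FPKM in chow-fed KO mice, and to 6.2 to 414 and 401 to 562 FPKM with fat feeding, with a median genotype difference of 2.04. The 6 macrophage markers summed to 98.5 to 209 FPKM in WT mice and 158 to 335 FPKM in KO mice, with a median of 0.93, and Emr1, the F4/80 antigen of macrophages, rose by 0.89 in the KO mice (adjusted p = 0.042). That call was lost without replicate 1 or 3 of the chow-fed WT mice, replicate 1 or 3 of the chow-fed KO mice or replicate 1 or 2 of the fat-fed KO mice. It was also lost without the filter and with the replicate block (adjusted p = 0.058). Without the 3 libraries rich in lymphoid markers, which leaves only replicate 2 of the chow-fed KO mice, the difference was 0.86. The 5 tested muscle markers had a median genotype difference of -0.19. Of the other lists the median genotype difference was 0.44 for lymphoid, -0.14 for platelet and erythroid, 0.52 for Schwann cell and nerve and 0.29 for fibroblast and tendon genes, and -0.24 for Krt10, the only keratinocyte marker tested. Of the 4 keratinocyte markers, 3 were at 0 throughout the chow-fed KO group, and Myh4 was the only marker of the other lists at 0 in every library. The part of these cells in the levels of the 10 genes was not tested.

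For diet the median difference was -1.10 for the adipocyte, -0.20 for the macrophage, 0.18 for the muscle, -1.33 for the lymphoid, 0.27 for the platelet and erythroid, -0.44 for the Schwann cell and nerve and 0.61 for the fibroblast and tendon markers, and 0.31 for Krt10. The smallest p for diet belonged to Cfd at -3.38, Cd163 at -0.60, Myh1 at 0.33, Ltb at -1.83, Alas2 at 0.99, Pmp22 at -0.39 and Tnmd at 1.74, and none was called, with adjusted p from 0.080 to 0.52 in limma. For genotype it belonged to Retn at 2.34, Myh1 at -0.55, Ccr7 at 0.56, Pf4 at 0.58, Pmp22 at 0.54 and Pdgfra at 0.46, with adjusted p from 0.072 to 0.54.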

How the data were processed

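The authors sequenced muscle RNA of 12 mice (Illumina HiSeq2000) and deposited 1 FPKM value per gene symbol and library, without pooling. The processing notes name TopHat2 2.0.8b, Cuffdiff 2.1.1 and the build mm10, without their roles. The unit was read from the values and these notes. Of 23179 rows per file, repeated symbols were reduced to their highest-mean row. Genes with FPKM of at least 1 in at least 3 libraries were tested on log2(FPKM + 1) with limma 3.58.1 (R 4.3.3), fitting 4 group means with a variance trend and leaving 8 degrees of freedom. Benjamini-Hochberg adjustment ran over 11945 genes, at a threshold of 0.05. The comparisons were diet within each genotype, genotype within each diet, their interaction and the average of each. Ratios were tested by exact stratified permutation on log2 of FPKM + 0.1. Fold changes on these scales understate the change of low genes. Other values used Python 3.11.15, pandas 2.3.3, NumPy 2.4.6 and SciPy 1.17.1, and transcript lengths were the longest in GENCODE M21, matched for 90.4% of tested genes.

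Each library is a separate mouse by its title, and no 2 libraries were copies. Depth in reads is unknown. The 10 genes and all lists were chosen with earlier results of these data known. Named beside the 10 genes were Cryab and Hspb2, each list gene past the threshold, the gene of smallest p in each list for the average diet and genotype comparisons, and the 5 genes most like the mean endothelial profile and most like Vegfa. Vegfb, Ckm, Acta1 and Myh4 were named after their values were seen. Replicate numbers come from the titles, and no label ties same-numbered mice together. Alternatives were a pseudocount of 0.1 (0.01 and 1 for ratios), no filter, the replicate number as a block, genotype by label, median-of-ratios size factors, quantile normalization, only the 2 groups compared, each library left out in turn and, chosen after seeing the data, the 3 libraries rich in lymphoid markers left out together. The fit was tested on simulated data.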

Additional observations from a re-analysis of the deposited data

How the results depend on the processing

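None of the 10 genes passed the adjusted threshold in any of the 7 comparisons under any of 20 alternative settings, of which the fit on only the 2 groups compared covers 4 of the 7. With genotype by label, which Cryab and Hspb2 go against, the differences of the called list genes Nrarp, Svep1 and Emr1 turned to 0.1124, -0.07832 and -0.4473. The label nearly exchanges the fat-fed groups, so this is no test of the calls. Over the alternatives, 26 fits of named list genes in the 2 averaged comparisons lost a call and 12 gained one. The Angpt2 to Angpt1 ratio differed between diets by -0.4938 to -0.3135 (log2) with each library left out in turn, and its exact permutation p came to 0.04 without replicate 2 of the chow-fed KO mice and 0.03 without replicate 3 of the fat-fed KO mice. The Flt1 to Kdr ratio differed by 0.1239 to 0.2639 between diets, with an exact permutation p of 0.01 without the former library. Between genotypes it differed by -0.3089 to -0.1688, with an exact permutation p of 0.005 without that library and 0.04 without replicate 1 of the fat-fed KO mice. These p-values are unadjusted, and in each of the 3 comparisons p was under 0.05 in at most 2 of 12 such fits. Replicate 2 of the chow-fed KO mice is the only library of its group not rich in lymphoid markers. Without it that group rests on libraries rich in them. The causes were not tested. Same-numbered libraries deviated from their group means with correlations of -0.806 to 0.387. Differently numbered pairs were not set beside them, so whether same-numbered libraries share a factor was not tested. With the replicate block the average genotype difference of Vegfa was again -0.43, which a block with each number once per group cannot change. Its adjusted p in limma was 0.14 with the block and 0.086 without it, and 0 of the 10 genes passed.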
